A study of Mus musculus with 48 samples.

Results

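The regions described here are 1010 accessible sites in P19 mouse embryonic teratoma cells at which ATAC-seq signal was higher after 1 h Activin and remained higher after 8 h Activin than in cells held in the receptor inhibitor SB-431542. They were chosen on the measured values. The authors' lists of broad peaks for the 4 signalling states were merged into 287329 regions, of which 162505 had a peak in every list. In each list the highest fold enrichment of a shared region was divided by the median over the 162505 regions, and members are those whose log2 ratio to SB-431542 was at least 0.35 both at 1 h and at 8 h. They make up 0.622% of the shared regions.

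The cells of the 1 h Activin and 8 h Activin states were kept overnight in 10 µM SB-431542, which blocks the type I receptors for NODAL, Activin and TGF-β, and were then washed and given 20 ng/ml Activin. Untreated cells had no inhibitor and signal through the NODAL and GDF3 that they secrete, and the SB-431542 cells were washed in the same way and returned to the inhibitor for 1 h in full medium, which makes them the control in time for 1 h Activin but not for 8 h. All cells came from 1 cultured line, with 2 biological replicates per state that the authors merged before calling peaks. Each state is therefore 1 list, no spread between replicates can be given, and no value here carries a p-value between states. The promoters of *Pou5f1*, *Sox2*, *Lin28a*, *Utf1* and *Sall4*, which mark embryonal carcinoma cells, had a peak in all 4 lists, while those of the liver gene *Alb* and the globin gene *Hbb-bt* had none. The promoters of *Myod1* and *Ptprc*, markers of muscle and blood, also had a peak in all 4 lists. The lowest local background, a measure of relative depth, was 92.6% (1 h Activin), 79.0% (8 h Activin) and 84.8% (untreated) of the SB-431542 value, and the lists held 233336, 209212 and 220004 peaks in these states, against 234758 for SB-431542.

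Activin and NODAL signal through receptors that phosphorylate SMAD2 and SMAD3, which form complexes with SMAD4 and enter the nucleus. SMAD3 and SMAD4 bind short DNA elements such as CAGAC, and the complexes are brought to many targets in early embryonic cells by the forkhead factor FOXH1, whose element reads AATNCACA here. In the embryo this pathway specifies mesoderm and endoderm through genes such as *Eomes* and *T*, often together with WNT signalling, which acts through TCF/LEF factors. ATAC-seq measures how readily a transposase inserts into DNA, so a higher fold enrichment means more insertions over the local background of the same sample.

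Stretches from 8 members are shown first because they lie at loci that the study examined or carry the elements that the comparison below turns on. Each is the plus strand of mm10, with 1-based coordinates, taken from the central 300 bp of the member and trimmed to 20 bases beyond the outermost marked element. Capitals mark CAGAC, the SMAD palindrome GTCTAGAC and the FOXH1 element AATNCACA on either strand.
Pmepa1 upstream (chr2:173334582-173334682): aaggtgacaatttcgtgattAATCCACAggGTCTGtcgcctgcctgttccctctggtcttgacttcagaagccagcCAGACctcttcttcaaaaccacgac
Pmepa1 intron (chr2:173258299-173258469): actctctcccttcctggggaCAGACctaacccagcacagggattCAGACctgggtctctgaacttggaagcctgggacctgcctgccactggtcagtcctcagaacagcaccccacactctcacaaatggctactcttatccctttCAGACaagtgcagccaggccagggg
4933432G23Rik, near Eomes (chr9:118432947-118433082): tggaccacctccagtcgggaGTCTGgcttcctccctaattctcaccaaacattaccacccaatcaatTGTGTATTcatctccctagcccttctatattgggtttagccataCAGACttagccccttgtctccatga
Tbx3os1, near Tbx3 (chr5:119651654-119651782): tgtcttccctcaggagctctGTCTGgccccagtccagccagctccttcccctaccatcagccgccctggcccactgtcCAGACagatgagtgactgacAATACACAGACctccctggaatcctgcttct
Tiparp (chr3:65496260-65496320): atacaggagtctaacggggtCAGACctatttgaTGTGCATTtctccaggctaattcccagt
Gria4 (chr9:4678297-4678344): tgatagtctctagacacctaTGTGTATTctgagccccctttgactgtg
Mir1929, near Prdm1 (chr10:44392223-44392270): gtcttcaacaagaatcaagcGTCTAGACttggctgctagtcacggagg
Pld5 intron, nearest to Becn2 (chr1:176037818-176037969): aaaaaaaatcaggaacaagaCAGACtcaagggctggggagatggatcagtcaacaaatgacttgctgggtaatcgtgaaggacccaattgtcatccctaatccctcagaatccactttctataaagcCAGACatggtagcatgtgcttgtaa

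In the window upstream of *Pmepa1* a FOXH1 element and a CAGAC element on the opposite strands lie 2 bases apart. In the window in *Tbx3os1* they overlap, since the last bases of the FOXH1 element are the first of a CAGAC. For *Pmepa1* the paper reports that the SMAD2-bound enhancer it studied lacks FOXH1 sites, and that induction persisted in clones with mutant FOXH1. Whether either *Pmepa1* window is part of that enhancer was not determined, and an element in a window does not show that FOXH1 acts there. A further set of members is shown because their windows hold near-identical sequence at unlinked places in the genome. *Gm2921*, *Slco1b2* and *Gm12069* share the stretch that joins a CAGAC to the FOXH1 element, and *Gm2921* has no match to the FOXH1 letters in it. *Adgrg6* and *Gm45952* share a second stretch around their CAGAC. *Cldn34d*, *Lilra5* and *Platr21*, which were picked after their values were seen, share another.
Gm2921 (chr8:57931317-57931361): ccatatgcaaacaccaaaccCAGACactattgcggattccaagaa
Slco1b2 (chr6:141693753-141693874): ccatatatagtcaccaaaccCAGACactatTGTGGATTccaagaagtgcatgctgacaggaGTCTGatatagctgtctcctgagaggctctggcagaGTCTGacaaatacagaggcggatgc
Gm12069 (chr11:25240736-25240806): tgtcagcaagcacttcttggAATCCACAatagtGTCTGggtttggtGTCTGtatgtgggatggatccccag
Adgrg6 (chr10:14340847-14340891): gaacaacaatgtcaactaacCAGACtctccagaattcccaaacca
Gm45952 (chr4:49625034-49625123): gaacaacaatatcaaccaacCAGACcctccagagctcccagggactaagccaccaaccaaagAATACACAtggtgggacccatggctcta
Cldn34d (chrX:76687058-76687159): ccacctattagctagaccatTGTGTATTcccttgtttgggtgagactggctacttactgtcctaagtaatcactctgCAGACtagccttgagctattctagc
Lilra5 (chr7:4213622-4213719): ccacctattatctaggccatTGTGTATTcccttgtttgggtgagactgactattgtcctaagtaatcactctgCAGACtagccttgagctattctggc
Platr21 (chrX:139345358-139345460): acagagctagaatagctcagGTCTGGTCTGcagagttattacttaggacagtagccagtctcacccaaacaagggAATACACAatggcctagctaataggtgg

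Members stood low in the SB-431542 list and above the middle in the others, as the rule requires in part. The median member had a fold enrichment of 2.92 with 1 h Activin, 3.51 with 8 h Activin and 3.03 in untreated cells, against 2.24 with SB-431542. Its percentile among all shared regions was 62.9, 71.9 and 62.1 in the same 3 states, against 33.7 with SB-431542. With SB-431542, 688 of the 1010 members (68.1%) lay below the median of the shared regions, and 340 (33.7%) had a -log10 q under 5 in that list, against 20.9% of all shared regions. The median log2 ratio was 0.43 at 1 h and 0.55 at 8 h, and 221 members were past 0.5 and 14 past 1 at both times. As background, 1.86% of the shared regions were past 0.35 at 1 h and 7.59% at 8 h. Of the 3029 regions past 0.35 at 1 h, 1010 (33.3%) were past it at 8 h, and of the 12341 past it at 8 h, 1010 (8.18%) were past it at 1 h. Regions past -0.35 at both times numbered 950. The balance between the directions depended on the scale, with 396 rising and 2472 falling without scaling by the median, 2285 and 1025 by the estimated pileup and 221 and 98 at a threshold of 0.5.

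**Figure D1:**
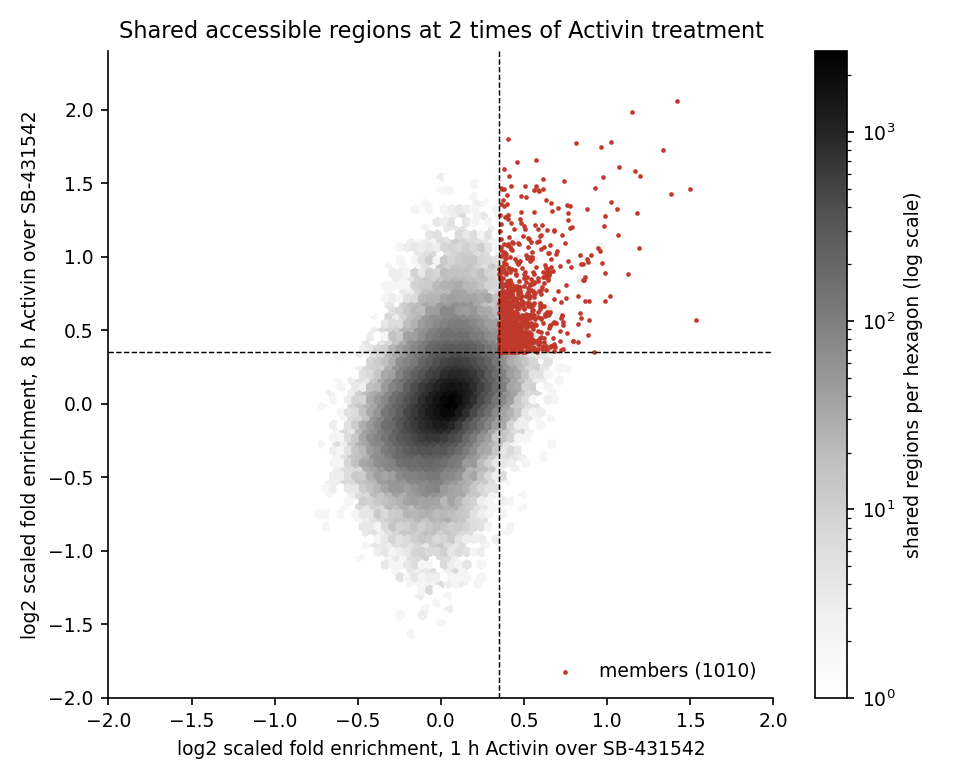
Log2 ratio of scaled fold enrichment to SB-431542 at 1 h Activin (x axis) and 8 h Activin (y axis) for the 162505 shared regions (grey hexagons, log colour scale) and the 1010 members (red points), with dashed lines at 0.35. The members occupy the upper right corner by their definition, and 14 of them lie past 1 on both axes.

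**Figure D2:**
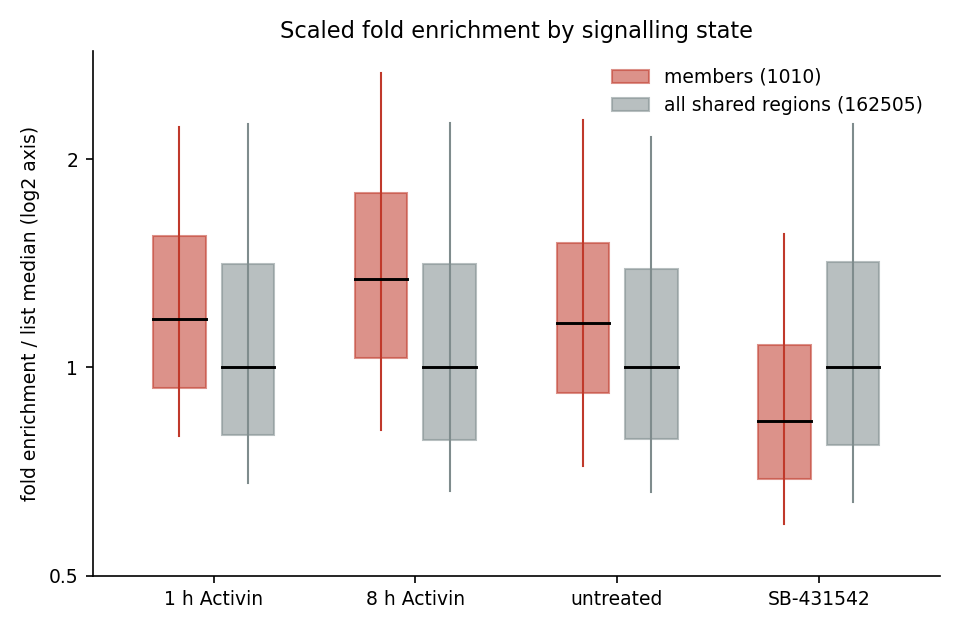
Scaled fold enrichment (fold enrichment divided by the list's median, log2 axis) of the 1010 members (red) and all 162505 shared regions (grey) in the 4 states. Boxes span the quartiles, black lines the medians and whiskers the 5th to 95th percentile. Members lie above the shared regions in the first 3 states and below them with SB-431542.

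Fold enrichment is a ratio and can rise because the local background falls. It is also a mean over the called peak, so peaks of unequal width average different stretches. For the highest peak, the log2 width ratio of 1 h Activin to SB-431542 had a 10th percentile of -1.62 in members. Over all shared regions it was -0.55. The 90th percentile was 0.69 in members, against 0.55. From the authors' fold enrichment and -log10 p the pileup and the background of each peak were estimated, which assumes that the averages over a broad peak come from 1 background value. On this estimate 799 of the members (79.1%) were also past 0.35 in pileup at both times, against 1.41% of all shared regions, and 40 were past 1. The other 211 members did not reach 0.35 in estimated pileup at 1 or both times. Among them is the promoter of *Pgk1*, a glycolytic gene often used as a housekeeping reference, with a log2 ratio in fold enrichment of 0.36 at 1 h and 0.47 at 8 h and in estimated pileup of 0.00 at 1 h and -0.13 at 8 h. A higher background, in turn, lowers the fold enrichment for a given pileup. At 8 h the scaled estimated background was up by a log2 ratio of at least 0.35 at 129 members (12.8%), against 2.02% of all shared regions. It was down by as much at 27 (2.67%), against 1.98%. Fold enrichment and estimated pileup come from the same lists as the rule, so the pileup describes the members and does not test them.

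A region in an intron of *Pld5*, 119 kb from the nearest start site, that of the autophagy gene *Becn2*, had a fold enrichment of 6.76 with 1 h Activin, 6.95 with 8 h Activin and 6.00 in untreated cells, against 2.57 with SB-431542. It had the largest of the smaller log2 ratios, 1.46, and its level was nearly the same at both Activin times. A region in an intron of *Galntl6*, nearest to the start of *Gm2921*, had 3.88, 6.36 and 5.25 in these states, against 1.56 with SB-431542. This member was near the bottom of the SB-431542 list, at percentile 0.38. It is in the first of the repeat families described below, where values are uncertain. In an intron of *Gria4*, which encodes a subunit of AMPA-type glutamate receptors, fold enrichment was 5.77 with 1 h Activin, 8.08 with 8 h Activin and 7.12 in untreated cells, against 2.76 with SB-431542. In an intron of *Ndst4* (chr3:125482259-125483274), an enzyme of heparan sulphate synthesis, it was 3.98, 7.09 and 5.18, against 2.11 with SB-431542. Both regions gained further between the Activin times.

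A region 8.05 kb from the start of *Pmaip1* (chr18:66450338-66450763), which encodes the pro-apoptotic protein NOXA, had 3.82 with 1 h Activin, 5.83 with 8 h Activin and 3.40 in untreated cells, against 1.95 with SB-431542. An intronic region of *Ldlrad4* (chr18:68116894-68118334), which encodes a membrane protein that restrains TGF-β signalling by binding SMAD2 and SMAD3, had 5.18, 5.63 and 5.17, against 2.13 with SB-431542. Its window held both CAGAC and the SMAD palindrome. The member that carries the palindrome 66.6 kb from the start of *Prdm1*, a transcriptional repressor needed for primordial germ cells, was higher at 1 h Activin (6.92) than at 8 h Activin (6.64) and in untreated cells (5.01), against 3.25 with SB-431542. The 15 members with the largest smaller log2 ratio among those with a -log10 q of at least 10 at both Activin times all exceeded their SB-431542 value in untreated cells too. Those nearest to *Gm2921*, *Adgrg6*, *Gm12069*, *Slco1b2*, *Gm45952*, *A530072M11Rik* and *Ythdc2* are in the repeat families described below, so their values are uncertain.

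**Figure D3:**
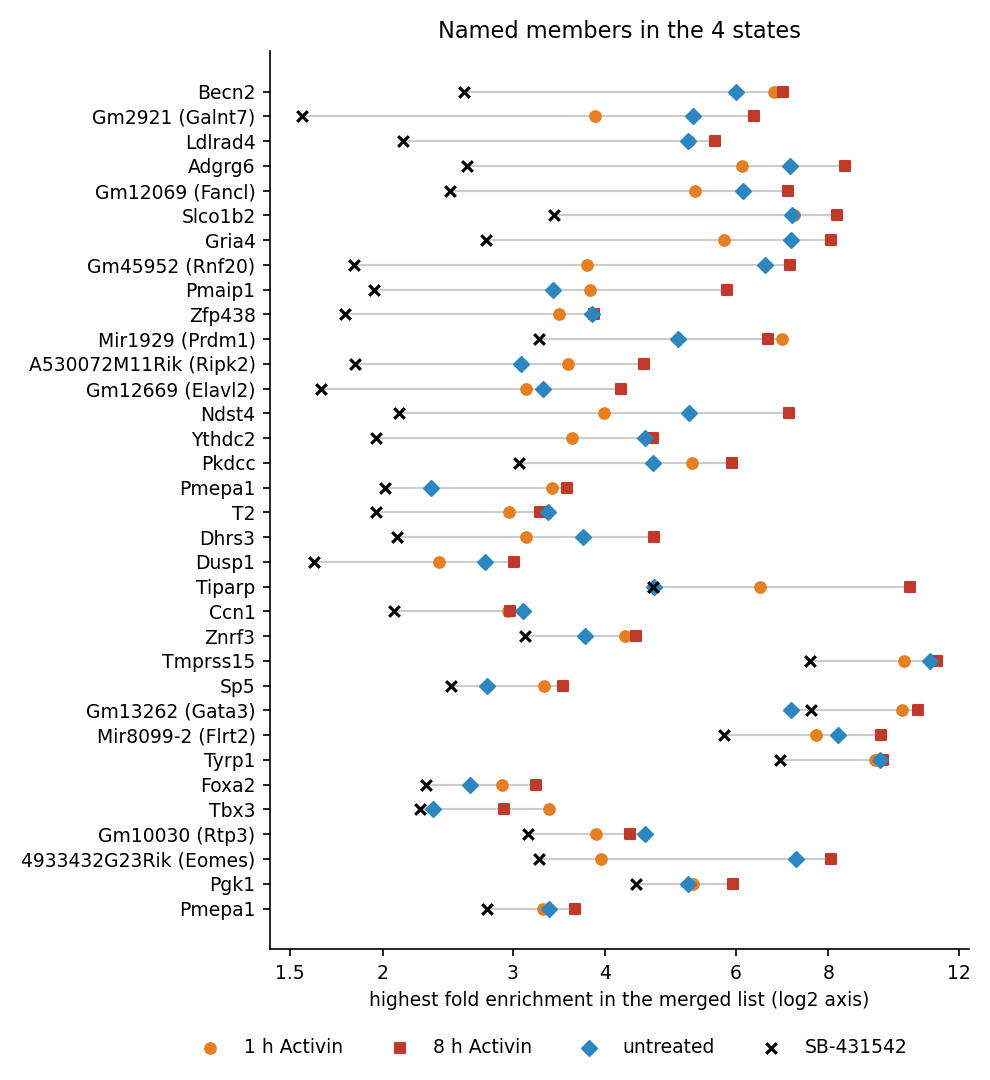
Highest fold enrichment (log2 axis) of the 34 named members in the merged lists of 1 h Activin, 8 h Activin, untreated and SB-431542 cells. Rows are labelled by the nearest gene, with the nearest protein-coding gene in parentheses where it differs, and ordered by the smaller of the 2 log2 ratios. In most rows the untreated value lies between SB-431542 and 8 h Activin, while at *Tiparp* it coincides with SB-431542 and at *Gm13262* it lies below it.

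At the loci the study examined, members were few and lay at a distance from the start site. *Pmepa1*, a feedback inhibitor that sequesters SMAD2 and SMAD3, had 2 members among 20 shared regions within 100 kb. The intronic one, 18.3 kb from the start, had a fold enrichment of 3.39 with 1 h Activin, 3.54 with 8 h Activin and 2.33 in untreated cells, against 2.01 with SB-431542. The upstream one, 58.0 kb away, had 3.30, 3.64 and 3.35, against 2.77 with SB-431542, and entered just past the threshold at 1 h. In estimated pileup its log2 ratio was 1.74 at 1 h and 2.41 at 8 h. Its estimated background was 35.7 with SB-431542, 85.3 at 1 h and 111 at 8 h, which lowers the ratio in fold enrichment. The intronic member had log2 ratios of 2.80 and 3.03 in estimated pileup. The member 45.0 kb from the start of *Eomes*, a T-box factor of mesendoderm, had 3.95 with 1 h Activin, 8.08 with 8 h Activin and 7.24 in untreated cells, against 3.25 with SB-431542. Its 1 h value was close to SB-431542 and its 8 h value was the one that stood apart. Near *Tbx3*, another T-box factor, the member in the antisense gene *Tbx3os1* had 3.36 with 1 h Activin, 2.92 with 8 h Activin and 2.34 in untreated cells, against 2.25 with SB-431542. That is the opposite course, highest at 1 h and almost at the SB-431542 value in untreated cells.

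Within 100 kb of *T*, the mesodermal T-box factor brachyury, 1 of 19 shared regions was a member. It lies in an intron of *T2* (chr17:8375232-8376598) and had 2.97 with 1 h Activin, 3.26 with 8 h Activin and 3.34 in untreated cells, against 1.96 with SB-431542. No shared region within 100 kb of *Lefty1* (22 regions), *Lefty2* (21), *Wnt3* (16), *Trh* (14) or *Smad7* (26) met the rule. The nearest to it at these 5 loci had a smaller log2 ratio of 0.32 and lay within 100 kb of both *Lefty1* and *Lefty2*, which encode extracellular inhibitors of NODAL. The paper reports higher accessibility with signalling at SMAD2-bound sites of *Lefty1*, *Lefty2* and *Smad7*, and little change at *Wnt3* and *Trh*. Its differential calls used the separate replicates, while the rule here takes peak means from merged lists. The measures and thresholds thus differ, and missing the rule does not contradict the paper.

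By the gene lists, members within 50 kb of a start site numbered 4 of 227 shared regions for NODAL and Activin targets (1.76%), near *Eomes*, *Pmepa1*, *Tbx3* and *Tdgf1*, the NODAL co-receptor. In the same list 5 shared regions were past -0.35 at both times. Mesendoderm genes had 2 of 159 (near *Eomes* and *Foxa2*), WNT targets and feedback genes 3 of 181 (near *Nkd1*, *Sp5* and *Znrf3*), genes of the SMAD pathway 3 of 228 (near *Acvr1c*, *Pmepa1* and *Tdgf1*) and serum-induced immediate early genes 3 of 234 (near *Ccn1*, *Dusp1* and *Klf6*). Pluripotency genes had 1 of 203, FOX factors 1 of 187, actin and SRF or YAP targets 1 of 180 and housekeeping genes 1 of 86. Neural genes (132 regions) and genes of blood, muscle and liver (103 regions) had none. The background was 0.622% of all shared regions, and counts of 0 to 4 against it say little about any 1 list. Over all shared regions near NODAL and Activin targets, several of which the study examined, the median log2 ratio was 0.04 at 1 h and -0.02 at 8 h, against 0.03 and 0.01 over all shared regions. Since the 8 h Activin cells spent longer in fresh medium than the SB-431542 cells, the serum genes are given as values. At *Dusp1*, a phosphatase of MAP kinases, the member 3.01 kb from the start (chr17:26511276-26511683) had 2.38 with 1 h Activin, 3.01 with 8 h Activin and 2.75 in untreated cells, against 1.62 with SB-431542. At *Ccn1*, a secreted matrix protein, the member (chr3:145661796-145662432) had 2.95, 2.98 and 3.09, against 2.07 with SB-431542. On the scaled measure the log2 ratio at *Dusp1* was 0.66 at 1 h and 0.93 at 8 h, and at *Ccn1* it was 0.61 and 0.55. Whether serum has a part in these values was not tested.

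Among members with the highest -log10 q at 8 h Activin, a region 33.1 kb from the start of *Tiparp*, an ADP-ribosyltransferase gene, had 6.46 with 1 h Activin and 10.3 with 8 h Activin, while untreated cells (4.65) and SB-431542 cells (4.63) were level. Its highest peaks were 526 and 564 bp wide at the Activin times but 1997 bp (untreated) and 2100 bp (SB-431542), so these means cover unlike stretches. In estimated pileup the log2 ratio was 0.36 at 1 h, 1.68 at 8 h and 0.15 in untreated cells. A region in an intron of *Dhrs3* (chr4:144897571-144898720), which encodes a retinaldehyde reductase, had a fold enrichment of 3.13 with 1 h Activin, 4.65 with 8 h Activin and 3.73 in untreated cells. Relative to SB-431542 its log2 ratio was 0.68, 1.18 and 0.86 in these states. The most enriched member, 205 kb from *Tmprss15* (chr16:79295396-79297132), had 10.1, 11.2 and 11.0, against 7.55 with SB-431542. It belongs to the first of the repeat families described below, so its values carry the uncertainty given there. Members nearest to *Gm13262*, *Tyrp1* and *Mir8099-2*, from the same ranking, did not reach 0.35 in estimated pileup at 1 h. Their log2 ratios were 0.15, 0.15 and 0.27 at 1 h and 0.29, 0.26 and 0.66 at 8 h. At *Gm13262* the fold enrichment in untreated cells (7.13) was below that with SB-431542 (7.57). At the promoter of *Sp5*, a transcription factor gene induced by WNT, the member (chr2:70471284-70477901) had 3.30 with 1 h Activin, 3.50 with 8 h Activin and 2.77 in untreated cells, against 2.48 with SB-431542. In *Znrf3*, a membrane ubiquitin ligase that removes WNT receptors, the intronic member (chr11:5411529-5416276) had 4.25, 4.40 and 3.76, against 3.11 with SB-431542. In estimated pileup neither reached 0.35 at 1 h, with log2 ratios of 0.21 at *Sp5* and 0.17 at *Znrf3*. At 8 h they had 0.67 and 1.23. Their highest peaks were 6607 and 4309 bp wide with SB-431542, against 1116 and 665 bp with 1 h Activin. The member 6.21 kb from *Foxa2*, a forkhead factor of endoderm (chr2:148036800-148041709), had 2.90, 3.22 and 2.63, against 2.29 with SB-431542, and its estimated pileup was past 0.35 at neither time (0.31 at 1 h and 0.07 at 8 h on the log2 scale).

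Untreated cells were not used by the rule, although their ratio shares the SB-431542 list with it. Of the 1010 members, 578 (57.2%, 95% Wilson interval 54.2 to 60.2%) were past 0.35 in untreated cells, against 7.23% of all shared regions, and 5 were past -0.35, against 7.65%. The untreated ratio was above 0 at 960 members, against 49.9% of all shared regions. The level in untreated cells, which needs no SB-431542 value, was above the median of the shared regions for 646 members (64.0%, interval 61.0 to 66.9%), against 81252 of the 162505 shared regions. That level was also above the median for 67.0% of regions past 0.35 at 8 h alone and 34.2% of those at 1 h alone. Among regions past -0.35 at both times it was so for 57.6%, so a level above the median was not particular to members. Untreated cells lay below 8 h Activin at 810 members (80.2%), against 53.7% of all shared regions, and at or above both Activin times at 164 (16.2%), against 28.1%. Since members were selected for high values at both Activin times, a lower untreated value is in part set by the selection. For comparison, 12.2% of the 2019 regions past 0.35 at 1 h alone and 45.0% of the 11331 past it at 8 h alone were past it in untreated cells, groups that the choice of lists also shapes. In the mirrored direction, 601 of the 950 regions past -0.35 at both times (63.3%) were past -0.35 in untreated cells. A shared direction with untreated cells was thus not particular to members.

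The 8 h ratio was within 0.35 of the 1 h ratio at 813 members (80.5%), against 86.7% of all shared regions. It was higher by at least 0.35 at 189 (18.7%), against 6.91%, and lower by as much at 8 (0.79%), against 6.37%. The rule, which needs a high value at both times, shapes these shares. Of the 189 that gained further, 161 (85.2%, interval 79.4 to 89.5%) were past 0.35 in untreated cells, compared with 413 of the 813 level members (50.8%, interval 47.4 to 54.2%). Both shares rest on the SB-431542 list that the rule used.

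The sequence of the regions was not used by the rule. SMAD and FOXH1 elements were found more often in members than over all shared regions. In the central 300 bp, CAGAC was found in 684 members (67.7%, interval 64.8 to 70.5%), against 53.8% of all shared regions. The FOXH1 element was found in 143 members (14.2%, interval 12.1 to 16.4%), against 5.03%. Both together were found in 111 members (11.0%), against 2.73%, and the SMAD palindrome, which cannot contain CAGAC, in 27 members (2.67%, interval 1.84 to 3.86%), against 0.28%. When all shared regions were reweighted to the GC content of the members, their shares were 52.9% for CAGAC, 5.83% for the FOXH1 element, 3.07% for both and 0.28% for the palindrome. These are shares of regions with an exact match on either strand, not of sites bound by a factor.

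The other groups of regions came closer to the background. The FOXH1 element was found in 5.30% of regions past 0.35 at 1 h alone, in 7.41% of those past it at 8 h alone and in 3.89% of those past -0.35 at both times. CAGAC was found in 59.1%, 55.7% and 48.9% of these groups. Over all shared regions the share with the FOXH1 element increased with the smaller of the 2 log2 ratios, at 4.53% for ratios below 0, 8.59% for 0.25 to 0.35, 12.2% for 0.35 to 0.5, 18.6% for 0.5 to 0.75 and 31.8% (interval 20.0 to 46.6%) for the 44 regions at 0.75 or more. The share with CAGAC was 52.8%, 59.1%, 66.8%, 67.2% and 86.4% in the same bins. Regions just under the threshold thus already held more of both elements than regions that did not rise.

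**Figure D4:**
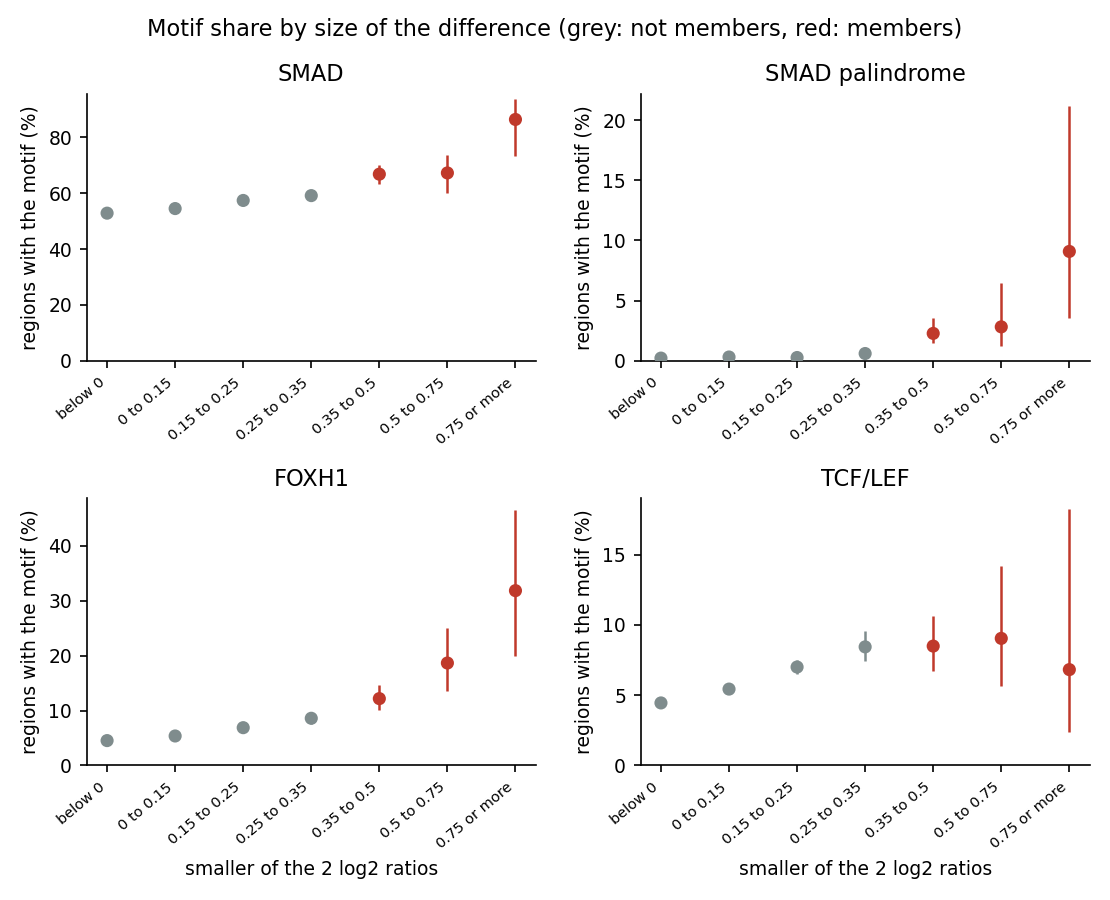
Share of shared regions with each element in the central 300 bp (y axis, percent, with 95% Wilson intervals) by the smaller of the log2 ratios at 1 h and 8 h Activin (x axis bins). Red points are bins of members and grey points bins of regions outside the rule, and the FOXH1 share climbs to 31.8% while the TCF/LEF share is flat among members.

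The elements were concentrated at the centre of the members. In the 50-bp bin just left of the centre of the stretch that the 4 highest peaks share, 21.2% of members held CAGAC, against 12.7% of all shared regions, and in the outermost bin on that side 9.41% did, against 9.96%. For the FOXH1 element the bin just right of the centre held 2.87% of members, against 0.88%, and the outermost bin there 1.19%, against 1.12%. Where a window held both elements, their starts were within 50 bp of each other in 66 of 111 members (59.5%) and in 42.7% of the 4436 shared regions with both.

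**Figure D5:**
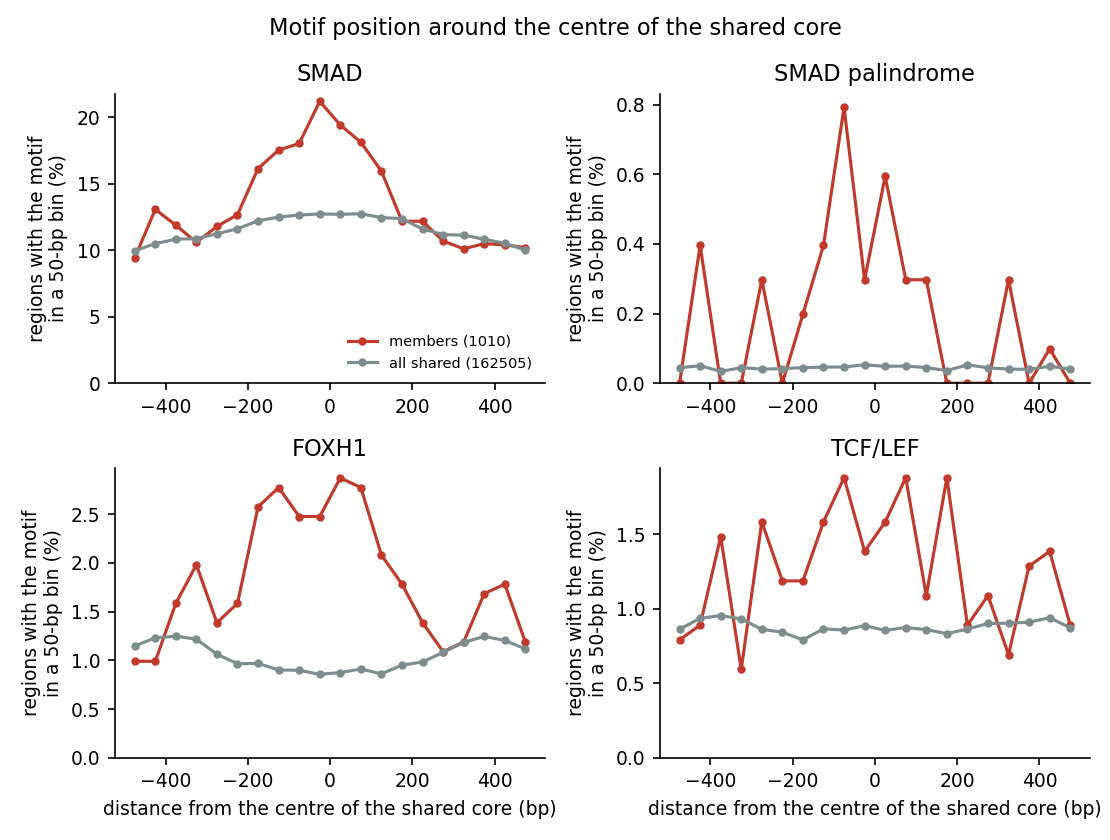
Share of regions with an element in each 50-bp bin (y axis, percent) by distance from the centre of the shared core (x axis, bp), for the 1010 members (red) and all 162505 shared regions (grey). In members CAGAC and the FOXH1 element peak within 200 bp of the centre, while over all shared regions CAGAC is slightly higher there and the FOXH1 element slightly lower. The palindrome curve rests on 27 members with it in the central window.

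Of the elements of other factors, the TCF/LEF element CTTTGAT was found in 8.51% of members, against 4.97% of all shared regions (5.49% when reweighted to the members' GC content), and in 15.3% of the 189 members that gained further between the Activin times, compared with 6.94% of the other members. It was found in 10.2% of regions past 0.35 at 8 h alone. The ZIC element CCTGCTG was found in 18.9% of members, against 13.8% (12.5% reweighted), and in 22.3% of the regions at 8 h alone. The FOX element GTAAACA, which the paper studied at *Pmepa1*, stayed near the background. It was found in 5.05% of members, against 4.21% (4.76% reweighted), and in 5.66% of the regions at 8 h alone. The bicoid-type homeobox element GGATTA was found in 15.6% of members, against 11.7% (12.9% reweighted), and the T-box element GGTGTGA in 6.53%, against 4.29% (4.22% reweighted). Regions at 8 h alone held these 2 elements in 16.7% and 5.06%, and regions past -0.35 at both times in 14.7% and 6.32%. Neither excess was thus particular to members. AP-1 (TGANTCA), bound by factors that serum induces, was found in 9.80% of members, against 10.1% (10.9% reweighted), while regions past 0.35 at 1 h alone held it in 15.1%. The GC-rich elements of CTCF (AGGGGGCG) and SP (GGGGCGG) were found in 0.99% and 2.28% of members, against 2.27% and 6.22% of all shared regions. Reweighting lowered these background shares to 1.43% and 3.04%, so that much of the gap went with GC content.

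Some members with a FOXH1 element shared repeated sequence. Members whose windows shared at least 10 20-mers were joined, which linked 153 of the 1010, and 97 of these fell into 2 families of at least 10 members. The first had 52 members and was matched by 5400 of all shared regions (3.32%), and the second had 45 members and was matched by 608 (0.37%). Their windows were mostly soft-masked as repeats in the reference, with a median of 94.8% and 79.7% of bases, against 13.3% for the other members. In the first family the FOXH1 element was found in 13 of 52 members (interval 15.2 to 38.2%) and in 4.13% of the 5400 shared regions, so that most copies did not carry it. In the second family it was found in 31 of 45 members (68.9%) and in 39.5% of the 608 shared regions, and CAGAC in 91.1% of members and 80.6% of the shared regions. These 608 regions had a median log2 ratio of 0.09 at 1 h, 0.11 at 8 h and 0.08 in untreated cells, so that most of them did not meet the rule. The families were built from the members, so the share of members within them is not evidence of a difference. The authors removed ambiguously aligned read pairs, and values at near-identical copies remain uncertain.

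Outside both families 913 members remained. Among them the FOXH1 element was found in 99 (10.8%, interval 8.99 to 13.0%), against 4.93% of the shared regions outside the families, and both elements in 7.56%, against 2.62%. CAGAC was found in 66.6%, against 53.6%, and the palindrome in all of the 27 members named above (2.96%, against 0.29%). Of the 33 members outside the families that were past 0.75 at both times, 5 (15.2%, interval 6.65 to 30.9%) held the FOXH1 element and 4 the palindrome, compared with 14 and 4 of all 44 such members, so 9 of the 14 with the FOXH1 element were members of the families. Past 0.5 at both times, 28 of 190 members outside the families (14.7%) held it, compared with 47 of all 221 (21.3%). Members without the rise in estimated pileup differed from the others: of the 211, 11 (5.21%) held the FOXH1 element and 50.2% CAGAC, compared with 132 of 799 (16.5%) and 72.3%.

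Members lay mostly in intergenic sequence (621, 61.5%) and introns (351, 34.8%), against 56.3% and 32.9% of all shared regions. At promoters, taken as 1000 bp before to 100 bp after a start site, were 15 (1.49%, interval 0.90 to 2.44%), against 5.71%, and in exons 17 (1.68%), against 3.96%. The median distance to a start site was 63.9 kb, against 49.9 kb. Regions past 0.35 at 1 h alone or at 8 h alone were as seldom at promoters (1.39% and 0.98%), as were those past -0.35 at both times (1.79%). Members rarely stood together, with 64 (6.34%) within 50 kb of another member and no group of 3 or more. By chromosome they made up between 0.405% (chromosome 11) and 1.09% (chromosome X) of the shared regions, with none of 37 on chromosome Y.

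The threshold of 0.35 divides a continuum. Just inside it lay a region in an intron of *Galm*, which had 8.75 with 1 h Activin, 9.39 with 8 h Activin and 9.34 in untreated cells, against 7.36 with SB-431542, and a region 189 kb from *Amy2b*, with 3.17, 4.94 and 4.80, against 2.67. Just outside it lay a region 512 kb from *Slc8a1*, with 2.33, 3.74 and 2.69, against 1.96, and a region near *Ppm1h*, with 2.79, 3.07 and 2.86, against 2.35. All 4 had a smaller log2 ratio of 0.35 after rounding.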

How the data were processed

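ATAC-seq of P19 cells was performed by the authors in 4 states with 2 biological replicates each. The labels list 48 libraries, 12 per state. Per the methods, reads were trimmed by the authors (cutadapt 1.9.1) and aligned with BWA 0.6.2 to the mm10 build. Ambiguous pairs were removed, the libraries of each state were merged with Picard, and MACS2 2.1.1.20160309 called broad peaks with no control library. In the deposited lists fold enrichment is the ratio of mean pileup to local background, with a pseudocount of 1. The scores, also as deposited, are -log10 of p and of q from MACS2 and describe peaks within a list.

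Peaks overlapping by at least 1 bp were merged (Python 3.11.15, pandas 2.3.3, numpy 2.4.6), and the highest fold enrichment per region and list was divided by the median over shared regions. Pileup and background were estimated by solving the Poisson tail (scipy 1.17.1) for each peak. The rule was run on simulated lists with raised regions, and the estimate on simulated peaks that each had 1 background value. These runs check the code and do not show how accurate either is on the deposited lists. The centre of each region was compared with 45756 transcripts of 26180 genes from RefSeq (GRCm38), which also served for sequences. Of 20 motifs, exact matches on either strand were counted in the central 300 bp. The palindrome shares no full match with CAGAC, while the last bases of AATNCACA can begin one. Gene lists, 11 in all, were applied within 50 kb.

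Depth was judged from the lowest local background, as the lists hold no counts, and intervals on shares are 95% Wilson intervals that cover counting error alone. The members, lists and motifs were chosen with earlier results of these data known. The named members are the 15 with the largest smaller log2 ratio among those with a -log10 q of at least 10 at both Activin times, the 8 with the highest -log10 q at 8 h, at most 2 per gene list, all members at the loci the study shows and those nearest to the threshold. The repeat families were defined after the data were seen. No comparison has a p-value, because each state is 1 merged list.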

Additional observations from a re-analysis of the deposited data

Results flagged for a closer look

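At 5 of the 1010 members the untreated value moved against both Activin times, past -0.35 relative to SB-431542. These are single values from merged lists that share the SB-431542 list, and the difference was not tested. The log2 ratio in untreated cells was -0.89 at a region on chromosome 8 nearest to *Gm35162* and to the WNT feedback gene *Nkd1*, where it was 0.36 at 1 h and 0.39 at 8 h Activin. It was -0.42 in an intron of *Lpp* on chromosome 16, -0.41 at 83.9 kb from *Nhsl1* on chromosome 10, -0.38 in an intron of *Tbc1d12* on chromosome 19 and -0.37 at 16.9 kb from *Wif1*, which encodes a secreted WNT inhibitor, on chromosome 10. At *Tbc1d12* the highest peak was 2244 bp wide in untreated cells, against 391 bp with SB-431542. Its untreated log2 ratio in estimated pileup was only -0.08. In estimated pileup it was -0.92 near *Nkd1*, -0.50 in *Lpp*, -0.27 near *Nhsl1* and -0.52 near *Wif1*. Near *Nkd1* the fold enrichment was 4.39 with 1 h Activin, 4.70 with 8 h Activin and 1.94 in untreated cells, against 3.67 with SB-431542. Near *Wif1* it was 2.98, 3.11 and 1.83, against 2.41 with SB-431542.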

How the results depend on the processing

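No paired analysis was possible because the authors merged the replicates of each state before peaks were called, and for the same reason no replicate could be left out. The 1010 members, the 57.2% of them past 0.35 in untreated cells and the 950 regions in the mirrored direction depended on the scale more than on how peaks were joined. Merging peaks closer than 200 bp, keeping assembled chromosomes alone (no peak lay elsewhere), a width-weighted mean and 1 peak in every list gave 1012, 1010, 954 and 915 members. Requiring each list to cover 50% of the region gave 641 members, with 583 of the 1010 kept, and 539 in the mirrored direction. A -log10 q of at least 5 gave 723 and 618. Without scaling there were 396 members, 66.9% past 0.35 in untreated cells, and 2472 in the mirrored direction. A percentile rise of more than 10 points gave 7886, 65.7% and 7950, and included 978 of the 1010. The estimated pileup gave 2285 and 60.8%, with 1025 in the mirrored direction. A threshold of 0.5 gave 221, 62.4% and 98. By any overlap, 2.57% of members touched a promoter, against 9.99% of all shared regions. Searching the whole region, CAGAC was found in 90.1% of members (87.1% of all shared regions), the FOXH1 element in 32.1% (18.9%), both in 30.2% (17.6%), the palindrome in 4.36% (1.10%) and TCF/LEF in 23.2% (17.4%). At 10 kb, 0 of 62 shared regions near NODAL and Activin targets were members. Small differences between lists of unequal depth are not resolved here.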

Other observations

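The members nearest to *En2* (smaller log2 ratio 0.96), *Alx4* (0.77), *Nr2f1* (0.70) and *Mir181a-2* (0.86) were picked after their values were seen and stand for no group. The first 3 genes encode transcription factors and the last a microRNA. Chromosome X and chromosome 19 held the largest shares of members among their shared regions, 1.09% and 1.07%, and chromosome 14 held 0.941%, compared with 0.405% and 0.417% on chromosomes 11 and 6. These are values with no test.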
